A study of Mus musculus with 3 samples.

Results

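Long retained introns of normal mouse liver are described here: introns that a share of a gene's transcripts keeps as part of an exon, longer than 300 bases by the authors' coordinates. The deposited tables list transcript-structure events, and each retained intron appears in 2 forms, a retaining form (1 exon that runs through the intron) and a spliced form (the 2 exons on either side). A member is an intron with its outer exon ends for which both forms were listed in the same library at least once, whose forms together averaged at least 1 FPKM (fragments mapped, scaled to exon length and to library size) over the libraries, and whose listed span exceeded 300 bases. Members were thus selected on the presence and the summed level of both forms and on length, and these are described below. The retained share and the ratio of the 2 forms are tested below, but both are made from the values that chose the members. Those tests are therefore not independent of the rule, and their p-values only describe the pairs it admitted. The span includes 1 exon base on each side, so the shortest intron admitted has 299 bases. Of 6895 listed pairs of forms, 2678 passed the listing and level conditions, and 1606 of those were long; the other 1072 are called short below. The 1606 pairs cover 1561 introns in 1198 genes, since 1 intron can be listed with several outer ends, and 289 pairs share their retaining exon with another pair. Pairs are therefore not independent of each other.

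The samples were 3 libraries of WT liver from healthy male C57BL/6 mice, replicates 1 to 3; the labels name no treatment and give no age. Nothing in the labels ties each library to an animal of its own, and the spread between libraries, which the p-values below measure, may be technical. The tumours named in the study's design text were not analysed here, and no comparison between conditions can be made. The RNA used had an integrity number over 6.5. The protocol names both poly(A) selection and rRNA removal, so whether unspliced nuclear RNA entered the libraries cannot be told.

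The tables held 71716 to 74243 distinct events per library, among them 2821 to 2910 retaining and 5054 to 5139 spliced forms; read counts and depth are unknown. Of 8 hepatocyte markers, 7 (all but Cyp2e1) had a value and together reached 40552 to 46140 FPKM. The next highest sums were 172, 466 and 155 FPKM for erythroid, 109, 142 and 139 FPKM for stellate cell and 85.1, 135 and 124 FPKM for Kupffer cell markers. Cholangiocyte markers, of which only 2 of 5 reached 1 FPKM, summed to 79.2, 33.9 and 37.7 FPKM, highest in replicate 1. The retained shares below were also highest in that library, and the part of cell composition in them was not tested. The labels give male animals, yet the largest event at the Xist locus, which is transcribed from the inactive X of female cells, had 65.7, 53.9 and 46.4 FPKM in replicates 1 to 3. No event was listed in the Y-linked genes Ddx3y, Uty, Kdm5d or Eif2s3y in any library, though 8, 8 and 7 events were listed elsewhere on chromosome Y. The Xist values go against the labelled sex, and none of the results below uses the sex.

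Most introns are removed in the nucleus while the RNA is still being made. Transcripts that keep one are often held in the nucleus, where they are said to be detained, or carry a stop codon in the intron and are degraded by nonsense-mediated decay in the cytoplasm. SR proteins and other splicing regulators are known for controlling their own level in this way, and several noncoding RNAs with intron-borne small nucleolar RNAs are a further well-known class.

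The ends of 5 members are printed because they show what each form differs by: the exon bases before the intron, the start of the intron and the frame's first stop codon in it. In each donor line the first 12 bases are exon; the capitals mark the first 2 bases of the intron and the first in-frame stop codon where the reading frame enters from the exon. In Ccnl2 and Ddx5 those capitals join, because the stop begins at base 2 and base 3 of the intron. In each acceptor line the last 6 bases are exon and the capitals mark the last 2 bases of the intron. All are from the GENCODE M21 transcripts on GRCm38, on the strand of the gene.
Srsf5 donor, chr12:80947854-80947895: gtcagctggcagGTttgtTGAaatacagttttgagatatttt
Srsf5 acceptor, chr12:80949065-80949100: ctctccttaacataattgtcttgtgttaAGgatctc
Ccnl2 donor, chr4:155817976-155818017: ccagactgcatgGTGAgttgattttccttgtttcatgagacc
Ccnl2 acceptor, chr4:155820299-155820334: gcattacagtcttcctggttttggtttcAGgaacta
Ddx5 donor, chr11:106783929-106783970: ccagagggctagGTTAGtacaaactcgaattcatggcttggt
Ddx5 acceptor, chr11:106782688-106782723: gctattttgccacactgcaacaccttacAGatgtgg
Fn1 donor, chr1:71598344-71598385: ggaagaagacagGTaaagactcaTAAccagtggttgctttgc
Fn1 acceptor, chr1:71597382-71597417: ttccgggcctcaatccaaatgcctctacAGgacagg
Rack1 donor, chr11:48801823-48801880: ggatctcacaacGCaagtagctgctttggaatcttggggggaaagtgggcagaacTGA
Rack1 acceptor, chr11:48802243-48802278: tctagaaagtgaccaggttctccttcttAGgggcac
Ccnl2 and Srsf5 had the retaining form higher in each library, the Fn1 intron shown (986 bases) had it higher in replicates 1 and 2 only, Ddx5 is one whose share differed widely between libraries, and Rack1 is kept at a very low share. The Rack1 intron begins with GC in place of GT. The first in-frame stop began at base 7 of the intron in Srsf5, 2 in Ccnl2, 3 in Ddx5, 12 in Fn1 and 44 in Rack1.

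The long retained introns had a median length of 830.5 bases, with quartiles of 496 and 1492 and a longest of 8470 bases; 663 pairs exceeded 1000 bases and 17 exceeded 5000. They lay almost always inside genes rather than at their ends. Of the 1561 introns, 1486 could be placed by annotation in a transcript; 0.606% of these were the first intron of their transcript and 1.28% the last. Other introns of at least 299 bases in the same genes (n = 15435) were first in 18.6% and last in 10.9%, and their median length was 1485 bases. Of the placed members 94.3% lay within the coding part of their transcript, against 79.4% of the other introns. A retaining exon of the first or last intron would be the transcript's first or last exon, and whether such exons were listed as retained introns at all is not stated.

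The annotation already holds a transcript that keeps the whole intron for 728 of the 1606 members (45.3%), against 897 of the 1072 short ones (83.7%). Both forms were listed in all 3 libraries for 351 of those 728 (48.2%), and for 122 of the 878 members that no annotated exon spans (13.9%). A transcript of the class GENCODE calls retained intron spanned 638 members, a protein-coding transcript spanned 28, and one marked for nonsense-mediated decay spanned 35. An annotated transcript end lay inside 448 long members (27.9%), against 96 short ones (8.96%), and an annotated start inside 387 (24.1%), against 84 (7.84%). Reads from a transcript that ends or begins within an intron also cover part of it, and their part in the retaining values was not tested.

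The share of a member's FPKM carried by its retaining form is called the retained share, taking a form not listed in a library as 0. In bulk tissue an intron kept by few cells and one kept at a low share by all cells cannot be told apart. Its median over the long introns was 11.9%, 7.82% and 7.66% in replicates 1 to 3, which averages 9.12% ± 2.39 (SD, n = 3). Over the short introns it was 6.32%, 4.89% and 3.80%, with an SD of 1.27 (n = 3). The median was higher for long introns in each library and the ranges of the medians did not overlap; the differences of 5.56, 2.93 and 3.86 percentage points averaged 4.12 ± 1.33 (SD, n = 3). An exact two-sided sign-flip permutation test over the 3 libraries gave p = 0.25, the smallest value that 3 libraries allow. Away from the median the classes were closer: 18.3%, 15.1% and 16.03% of long pairs had a share above 50%, against 17.5%, 14.8% and 16.18% of short ones. The lower quartile was 0 for long pairs in each library, against 0.143%, 0.0618% and 0.0362% for short ones. Among introns with both forms listed in all 3 libraries the medians were 22.6%, 17.5% and 17.7% for 473 long pairs, and 5.80%, 6.23% and 5.10% for 584 short pairs. The difference then averaged 13.5 percentage points ± 2.88 (SD, n = 3, exact p = 0.25).

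**Figure D1:**
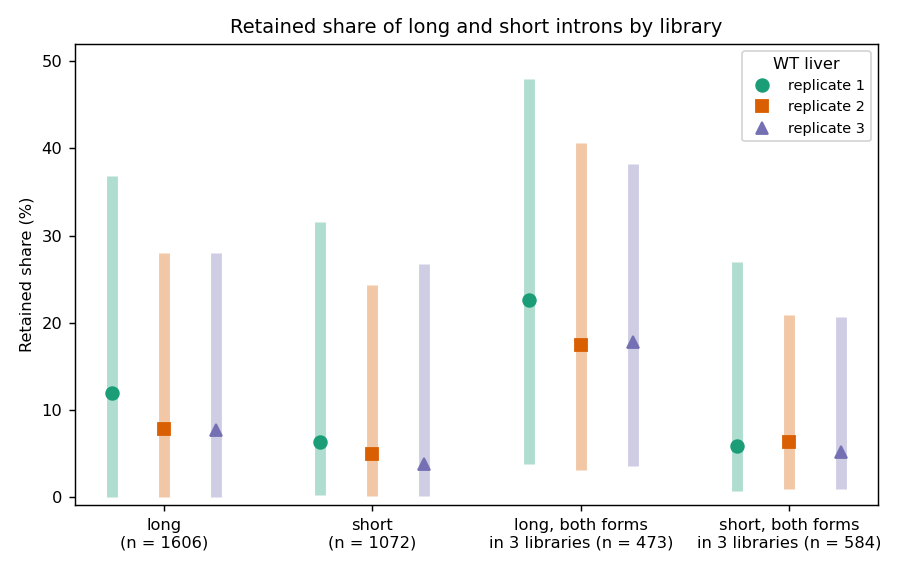
Retained share in percent (vertical axis) of the long and the short introns in each of the 3 WT liver libraries; symbols are medians over pairs and bars run from the lower to the upper quartile. The medians of long introns lie between 7.66% and 11.9%, those of short ones between 3.80% and 6.32%, and the gap is wider among pairs with both forms in all 3 libraries. The numbers of pairs are those of each class; pairs with neither form listed in a library have no share there.

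Summed over the members, the retaining forms carried 19.0%, 14.6% and 14.8% of the FPKM in replicates 1 to 3, against 17.0%, 12.7% and 12.8% for short introns. Replicate 1 stood above the others in both classes. Of the 472 long introns with both forms in every library, 211 had their highest share in replicate 1, 131 in replicate 2 and 130 in replicate 3. Between pairs of libraries the shares of these introns correlated with a Pearson r of 0.760 (replicates 1 and 2), 0.728 (1 and 3) and 0.763 (2 and 3), as a description across introns that share genes and libraries. The SD of an intron's share over the 3 libraries had a median of 7.49 percentage points, and exceeded 25 points for 37 introns.

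Listing, which is part of the rule that chose the members, differed between libraries. Both forms were listed in 1 library for 786 members (48.9%), in 2 libraries for 347 (21.6%) and in all 3 for 473 (29.5%). It was the retaining form that came and went, being listed in all 3 libraries for 584 members and in a single library for 665, while the spliced form was listed in all 3 for 1397 members and in a single library for 105. Whether an unlisted form reflects absence or an assembly that did not recover it in that library was not tested.

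The 2 forms of each pair were compared across the 3 libraries with limma, on log2 of retaining over spliced FPKM after adding 0.1 FPKM to each, fitted over all 2678 pairs at a Benjamini-Hochberg adjusted p of 0.05. Retaining forms were higher in 48 long members, or 2.99%, where 3.77% of all pairs and 4.94% of short ones were called. The spliced form was higher in 832, or 51.8%, where 54.6% of all pairs and 58.8% of short ones were called. Both shares are near the background of all pairs. The long counts moved to 11 and 168 when 0.01 FPKM was added in place of 0.1, and to 68 and 1005 with 1 FPKM. The median log2 ratio was -3.29 for long and -3.47 for short introns. The rule requires both forms to be listed, so ratios of introns with 1 form alone never enter. Where a library listed only 1 form of a pair, the other entered the ratio as the added 0.1 FPKM alone. The calls therefore also depend on listing, and its part in them was not tested. Of the 48 with the retaining form higher, 20 had both forms in all 3 libraries (4.23% of 473 such members) and 25 in 1 library only. Of the 832, 208 had both in all 3 (44% of 473) and 491 in 1 only. Both counts rest on all 3 libraries: 4 and 108 were left without replicate 1, 2 and 63 without replicate 2, and 0 and 0 without replicate 3, where limma gave 464 long members at an unadjusted p under 0.05. The calls of single members given below are therefore all lost without replicate 3.

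**Figure D2:**
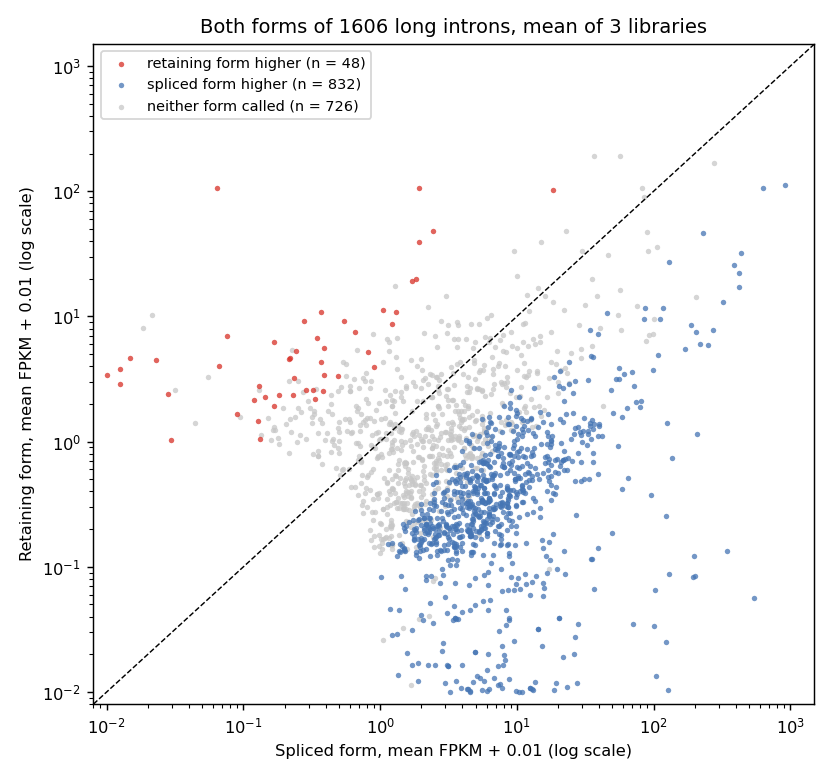
Mean FPKM over the 3 libraries of the retaining form (vertical axis) and the spliced form (horizontal axis) of each of the 1606 members, both plus 0.01 on log scales; the dashed line marks equal values. The 48 members with the retaining form higher in limma lie above the line, the 832 with the spliced form higher lie below it, and 726 were called in neither direction.

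Highest shares were ranked among members with both forms in all 3 libraries and a mean of at least 5 FPKM. The top 6 there were 2 of Fn1 and 1 each of Ccnl2, Mapre3, Ddx39b and Safb2. Members with less RNA, such as Bap1 at 834 bases (93.4%), were not ranked. Mapre3, which binds the growing ends of microtubules, had 8.82, 3.07 and 4.84 FPKM of the retaining form of its intron of 1168 bases and 0.422, 0.702 and 0.0068 FPKM of the spliced form, a share of 92.2% ± 9.63 (SD, n = 3; limma, adjusted p = 0.0298). No annotated exon spans this intron, and an annotated start lies inside it, whose part was not tested. Mapre3 held 3 member introns, and its other pairs are not reported here. Rsrp1, below these 6 in share, which encodes an arginine- and serine-rich protein and is in the splicing list, had 122, 91.2 and 92.0 FPKM of the retaining form and 22.3, 15.5 and 17.3 FPKM of the spliced form in replicates 1 to 3. Its retained share of 84.8% ± 0.671 (SD, n = 3) was nearly the same in each library, and the forms did not overlap. The log2 ratio was 2.47 with an SE of 0.57 (limma, adjusted p = 0.0272). The intron, of 1302 bases, is the third of 4 in its coding transcript. An annotated start and a whole annotated internal exon lie inside it.

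Ddx39b, an RNA helicase of splicing and mRNA export, had 21.9, 18.1 and 17.8 FPKM with its intron of 2177 bases kept and 1.05, 1.69 and 2.40 FPKM with it removed. Safb2, a nuclear scaffold attachment factor, had 13.3, 13.1 and 7.59 FPKM retaining and 1.66, 0.516 and 0.926 FPKM spliced. The retained share of the pair was about the same in both genes, 91.7% ± 3.64 in Ddx39b and 91.4% ± 4.16 in Safb2 (SD, n = 3). In both, the retaining form was higher in each library. No annotated exon spans either intron, and an annotated transcript end lies inside each, whose part was not tested. Clk3, a kinase that phosphorylates SR proteins, had 5.67, 1.62 and 4.80 FPKM retaining, against 0.0417, 0.0554 and 0.0723 FPKM spliced across an intron of 2473 bases. Its share was 98.2% ± 1.32 (SD, n = 3). A second, nested Clk3 intron of 2100 bases went the other way, with 0.0231, 0.00344 and 0.00754 FPKM retaining and 1.16, 6.29 and 0.987 FPKM spliced.

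Ccnl2, cyclin L2, which partners kinases of the splicing machinery, had 2 named introns that behaved differently. The 1 of 2341 bases, at chr4:155817988-155820328, had 4.41, 7.22 and 9.24 FPKM retaining, against 0.00772, 0.187 and 0.000963 FPKM spliced. Its share of 99.1% ± 1.41 (SD, n = 3) was the highest of any named member outside Fn1. A whole annotated internal exon lies inside it, and its spliced form leaves that exon out. The other, of 705 bases, is nested in the longer one and is not an annotated intron. It had 30.3, 9.98 and 3.56 FPKM retaining and 3.63, 26.8 and 18.0 FPKM spliced. Replicate 1 stood above the spliced form and replicates 2 and 3 below it, so the share of 44.3% ± 39.3 (SD, n = 3) describes no common level.

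Sfpq, a paraspeckle and splicing protein, had the longest named intron, 8289 bases, with 4.77, 4.54 and 6.58 FPKM retaining and 2.31, 1.09 and 0.0689 FPKM spliced. In all 3 libraries the retaining form was higher, yet the difference did not pass (limma, adjusted p = 0.0872). The Sfpq intron was placed in a noncoding transcript, and no annotated exon spans it. An annotated start and an annotated end lie inside it, whose part was not tested. The next longest were in Nav2 (5542 bases, 20.5% ± 3.47), which acts in neuronal guidance, Mtss1 (3949 bases, 17.2% ± 2.23), which binds actin, and Son (3935 bases, 31.1% ± 3.62; SD, n = 3), a nuclear speckle protein. Their shares were stable between libraries and the spliced form was higher in each library. Over the 472 introns listed with both forms throughout, length had a Spearman rho of 0.10 with the mean share, GC content 0.06 (n = 350) and the mean FPKM of both forms -0.31, which also stands in the share's denominator.

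**Figure D3:**
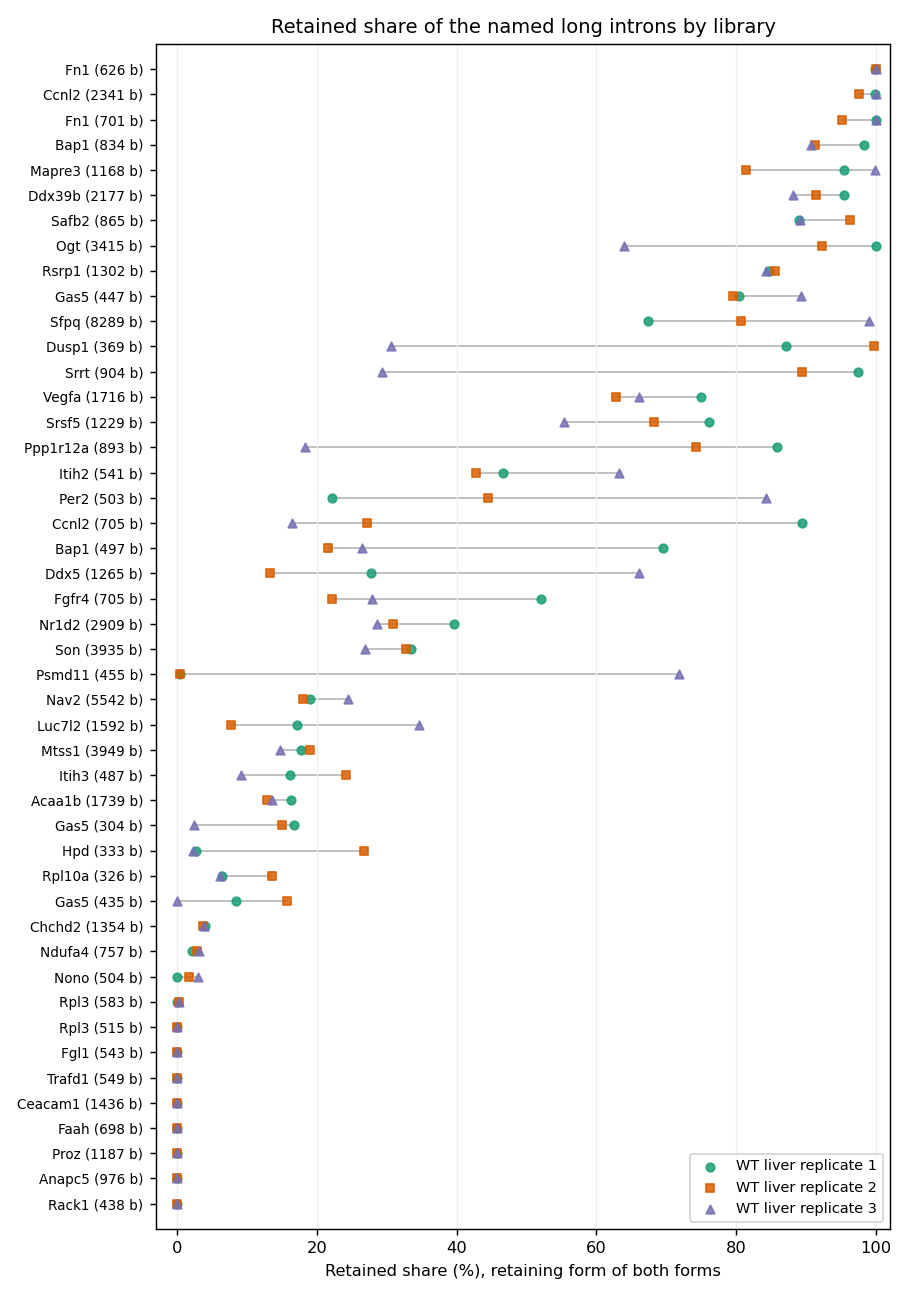
Retained share in percent (horizontal axis) of the 46 named members, with the intron length in bases beside the gene symbol; each symbol is 1 of the 3 WT liver libraries and the grey line joins the lowest and the highest. Rsrp1 and Ddx39b show little spread, Psmd11, Ccnl2 (705 bases), Srrt, Dusp1 and Ppp1r12a the most, and the lowest members sit at 0 on this scale.

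Among splicing factors and their kinases, a list of 63 genes, 57 reached 1 FPKM and 39 of these (68.4%) held a member, against 1108 of 9187 genes of that level in all (12.1%). Genes of the list were also more highly expressed, with a median of 17.2 FPKM against 6.08 FPKM over all, and genes differ in how many long introns they have. Among genes with any long retained-intron event listed, the rule kept 39 of 46 in the list (84.8%) and 1108 of 2172 in all (51.0%). The list's 81 pairs had a median share of 37.6%, against 10.8% over all members. Of these, 8 had the retaining form higher (9.88%), where 2.99% of members were called, and 19 the spliced form (23.5%), where 51.8% were called. The retaining form was listed in all 3 libraries for 52 of the 81, against 584 of 1606. The pairs lie in 73 introns of 41 genes and several share a retaining exon. The list was drawn up with earlier results of these data known.

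The SR proteins, which bind exons and recruit the spliceosome, were represented by several members. Srsf5 had 67.4, 41.2 and 34.8 FPKM with its intron of 1229 bases kept, at chr12:80947866-80949094, and 21.2, 19.3 and 28.1 FPKM with it removed. Each library had more of the retaining form, at a share of 66.5% ± 10.4 (SD, n = 3), and did not pass (limma, adjusted p = 0.204). The same retaining form against a spliced form of 432 bases, listed in replicate 3 only at 7.29 FPKM, gave a share of 94.2% and passed (limma, adjusted p = 0.034). Srsf7 had 6.75, 6.08 and 6.04 FPKM retaining and 8.12, 4.97 and 5.68 FPKM spliced across an intron of 874 bases, a share of 50.6% ± 4.88 (SD, n = 3). Of its other members, the one of 587 bases (97.6%) had the retaining form higher and the one of 1386 bases (19.0%) the spliced form (limma), and those of 1377 and 1410 bases (37.6% and 73.6%) were not called. Srsf3, across its span of 2150 bases, had 4.49, 1.14 and 1.20 FPKM retaining and 8.48, 10.3 and 10.9 FPKM spliced. Its share was 18.2% and was not called. The same retaining exon had 50.4% and 57.4% against spliced forms of 829 and 865 bases. With other outer ends those introns had 66.6% and 66.7%, and none of these pairs was called. An Srsf3 intron of 393 bases had 11.1%, with the spliced form higher (limma, adjusted p = 0.041). Srsf6 stood apart, with 0.0125, 0.0173 and 0.0226 FPKM retaining and 27.7, 28.2 and 23.8 FPKM spliced across 1283 bases. SR protein members thus ran from nearly fully spliced to mostly retained.

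The helicase Ddx5 had the second highest level among the list's named members and a share that differed widely, with 25.4, 6.22 and 61.7 FPKM retaining and 66.1, 40.4 and 31.6 FPKM spliced across 1265 bases. Replicate 3 held more of the retaining form and replicates 1 and 2 less, a share of 35.7% ± 27.3 (SD, n = 3). Srrm2, a large nuclear speckle protein, was steadier, with 8.11 to 11.4 FPKM retaining and 5.87 to 6.93 FPKM spliced over the libraries (61.0% ± 6.30, SD, n = 3). Nono, a partner of Sfpq, had 0.00811, 0.514 and 0.891 FPKM retaining and 30.9, 29.6 and 28.0 FPKM spliced, and Luc7l2, a factor bound to the U1 particle, had 4.53, 3.20 and 7.57 FPKM retaining and 21.9, 38.0 and 14.3 FPKM spliced. Among the Clk kinases were Clk1 with 7.60, 4.25 and 5.13 FPKM retaining and 4.44, 8.16 and 7.94 FPKM spliced across 1349 bases, and Clk4 with 7.40, 7.67 and 5.12 FPKM retaining across 1537 bases, whose spliced form was listed in replicate 2 alone at 1.00 FPKM. For Clk1 the forms overlapped between libraries, and for this Clk4 pair they did not (share 96.2%, retaining form higher; limma, adjusted p = 0.0212). The Clk4 pair of 2422 bases went the other way (2.19%, spliced form higher; limma, adjusted p = 0.0164). Clk4 pairs of 391 and 1055 bases (19.4% and 85.5%) were not called. Clk2 had 8 pairs, with mean shares of 18.6% to 80.0%, and none was called (limma). Clk1 had 5 pairs, with mean shares of 23.3% to 78.4%, and none of those was called either.

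Genes with several member introns included both RNA-processing genes and others. Of 1198 genes, 240 held at least 2 member introns and 75 at least 3. Akap8l, which encodes a nuclear scaffold protein, held 8, its relative Akap8 held 6, and Jmjd6, a nuclear hydroxylase that modifies splicing proteins, and Srsf7 held 5 each. Clk2, Clk4, Ccnl2, Clasrp and Hnrnph1 held 4 each. Among the others, Trak1, a mitochondrial transport adaptor, and Vwce, a von Willebrand factor domain protein, held 6 each, and Becn1, an autophagy protein, and Fgfr3, a growth factor receptor, held 5 each. These genes were chosen after their counts were seen.

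**Figure D4:**
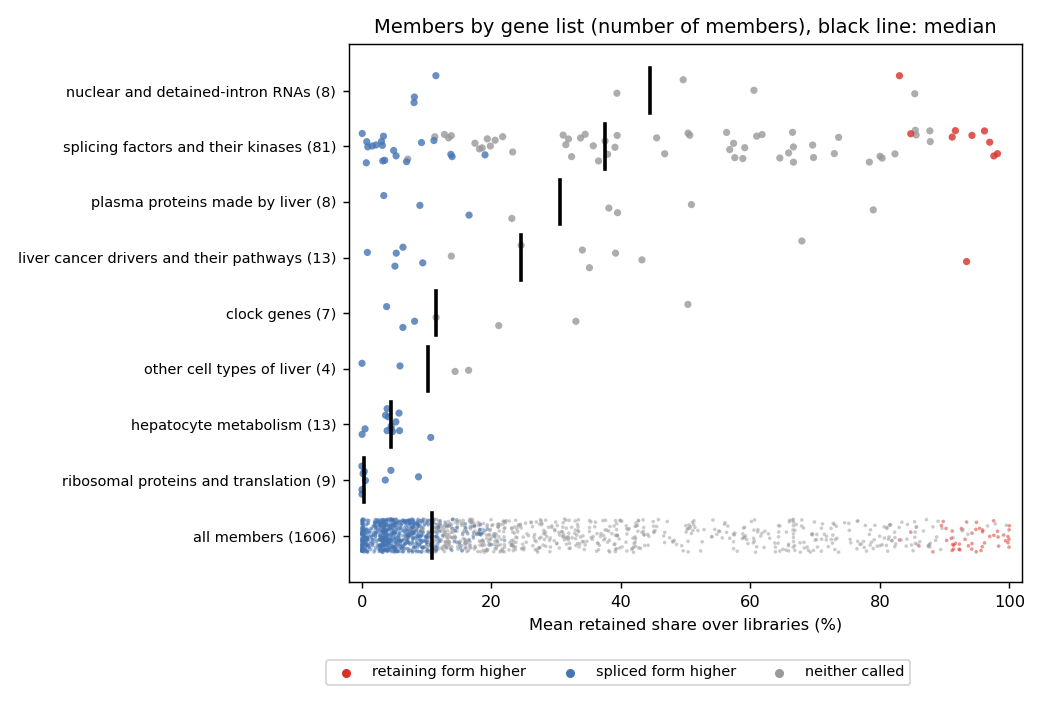
Mean retained share over the libraries in percent (horizontal axis) of the members in each gene list, 1 point per pair, with the number of pairs in parentheses and a black line at the median; colours give the limma call. The splicing list has a median of 37.6% and spans the whole range, while the hepatocyte metabolism list (4.53%) and the ribosomal list (0.378%) sit at the low end, against 10.8% over all 1606 members.

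Hepatocyte metabolism is the main work of the tissue. Of 48 genes of that list at 1 FPKM, 9 (18.8%) held a member. All 13 pairs had the spliced form higher (limma), where 51.8% of all long members were called so; their median share was 4.53%, and in 10 of the 13 the retaining form was listed in a single library. Pck1, the enzyme that begins gluconeogenesis from oxaloacetate, had 95.7 FPKM of the retaining form of its intron of 811 bases in replicate 3 and none listed in the others, against 538, 318 and 452 FPKM spliced. A second Pck1 intron, of 632 bases, had 76.9 FPKM retaining in replicate 1 only, against 410, 293 and 467 FPKM spliced. G6pc, which releases glucose in the last step, likewise had 11.6 FPKM retaining in replicate 1 for 1 intron and 9.47 FPKM in replicate 3 for another, against the same 55.7, 43.4 and 67.6 FPKM spliced. Mat1a, the methionine adenosyltransferase of liver, had 66.6 FPKM in replicate 3 for an intron of 1071 bases and 51.7 FPKM in replicate 1 for one of 307 bases, against 389, 466 and 402 FPKM spliced. In these 3 genes replicates 1 and 3 each listed a different one of these introns as retained, and replicate 2 listed neither.

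Hpd, the 4-hydroxyphenylpyruvate dioxygenase of tyrosine breakdown, was the member with the most RNA and the only 1 of that list with both forms in every library. Its intron of 333 bases at chr5:123181528-123181860 had 25.3, 283 and 26.1 FPKM retaining and 878, 774 and 1077 FPKM spliced. Replicate 2 held most of the retaining form, and the spliced form was higher in each library. The share was 10.7% ± 14.0 (SD, n = 3), and the log2 ratio -3.98 with an SE of 1.07 (limma, adjusted p = 0.0388). Acaa1b, a peroxisomal thiolase, was the next highest and steadier, with 130, 97.6 and 89.1 FPKM retaining and 669, 655 and 569 FPKM spliced, a share of 14.3% ± 1.79 (SD, n = 3). Chchd2 and Ndufa4, both mitochondrial, had shares of 3.89% ± 0.122 and 2.76% ± 0.489 (SD, n = 3).

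Of plasma protein genes, 5 of 44 at 1 FPKM held a member (11.4%), near the 12.1% over all genes. Itih2, a heavy chain of the inter-alpha-trypsin inhibitors, had 67.9, 78.8 and 124 FPKM retaining and 77.5, 106 and 72.1 FPKM spliced across the last intron of a transcript (541 bases). The forms overlapped, at a share of 50.9% ± 10.9 (SD, n = 3). With other outer ends the same intron had a mean share of 79.0% and was not called. An Itih2 intron of 1908 bases had 8.97%, with the spliced form higher (limma, adjusted p = 0.0467), or 23.2% with other outer ends, not called. Each of these further pairs lacked a listed form in at least 1 library. Itih3, another heavy chain, had 38.0, 73.9 and 26.7 FPKM retaining and 196, 231 and 262 FPKM spliced, and the spliced form was higher in each library. Apoa1, the main apolipoprotein of high-density lipoprotein, had both forms in replicate 1 alone, at 508 FPKM retaining and 824 FPKM spliced. Neither was listed in the other libraries for that pair of outer ends.

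Fn1, fibronectin of plasma and matrix, combined 3 members in 1 retaining exon. They share a donor and the retaining form, at 115, 109 and 93.2 FPKM, and differ in the acceptor. The intron to the last acceptor, 986 bases, was spliced at 41.5, 83.7 and 120 FPKM, the one of 701 bases at 0.103, 5.65 and 0.000796 FPKM, and the one of 626 bases at 0.159, 0.00431 and 0.000349 FPKM. The acceptors lie 285 and 75 bases apart, which are 95 and 25 codons with a remainder of 0. The high shares of the shorter introns, 98.3% ± 2.81 (SD, n = 3) at 701 bases and above 99% in each library at 626 bases, set the retaining exon against minor spliced forms; against the main one the share was 58.0% ± 15.0 (SD, n = 3), highest in replicate 1 and lowest in replicate 3. An annotated transcript end lies inside all 3 introns.

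Ribosomal protein and translation genes had the lowest median share of the gene lists. All 9 pairs had the spliced form higher (limma), where 51.8% of all long members were called so; the median share was 0.378%, and 7 had both forms in all 3 libraries. Rpl3, of the large ribosomal subunit, had 0.0193, 0.00902 and 0.0168 FPKM retaining and 125, 107 and 137 FPKM spliced across an intron of 515 bases. Rpl10a, of the same subunit, was the exception in size, with 9.29, 10.5 and 8.83 FPKM retaining and 134, 66.7 and 133 FPKM spliced, a share of 8.76% ± 4.18 (SD, n = 3). The number of reads behind retaining values as low as those of Rpl3 is unknown.

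The lowest share of all named members was in Rack1, a ribosome-bound scaffold protein, with 0.000407, 0.000411 and 0.000463 FPKM retaining and 133, 126 and 124 FPKM spliced. Anapc5, a subunit of the anaphase-promoting complex, was next, with a share of 0.00176% and 13.3, 11.9 and 4.405 FPKM spliced. Faah, which breaks down fatty acid amides, and Proz, the anticoagulant cofactor protein Z, were also low, at 0.00104, 0.000835 and 0.000999 FPKM against 27.0, 21.4 and 21.3 FPKM in Faah, and 0.00407, 0.00248 and 0.00336 FPKM against 98.8, 103 and 113 FPKM in Proz. Fgl1, a protein secreted by hepatocytes, had 0.0154, 0.0998 and 0.0248 FPKM retaining and 568, 507 and 554 FPKM spliced. These members were admitted by the listing of both forms, not by any level of retention.

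The most variable members lay between the extremes. Psmd11, a proteasome subunit, had 0.0642, 0.0785 and 9.65 FPKM retaining and 12.3, 18.6 and 3.80 FPKM spliced. Only in replicate 3 did the retaining form carry most of the FPKM of the pair. Srrt, which acts in small RNA processing, had 6.07, 3.86 and 2.04 FPKM retaining and 0.164, 0.460 and 4.90 FPKM spliced. Dusp1, a phosphatase induced by stress, had 12.4, 0.986 and 6.98 FPKM retaining and 1.83, 0.00317 and 15.8 FPKM spliced. In Srrt and Dusp1 replicate 3 was the library with more of the spliced form. Ppp1r12a, a myosin phosphatase subunit, had 4.58, 3.97 and 1.23 FPKM retaining and 0.757, 1.38 and 5.48 FPKM spliced, again with replicate 3 alone below its spliced form.

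Among genes of liver cancer and its pathways, 7 of 42 at 1 FPKM (16.7%) held a member. Vegfa, the angiogenic growth factor, had 20.7, 16.7 and 25.3 FPKM with its intron of 1716 bases kept and 6.89, 9.93 and 13.0 FPKM with it removed. The retaining form was higher in each library, at 68.0% ± 6.32 (SD, n = 3), and did not pass (limma, adjusted p = 0.171). Its other 3 pairs, with no retaining form listed in replicate 1, had lower mean shares: 5.12% at 826 bases, with the spliced form higher (limma, adjusted p = 0.0373), and 13.8% and 35.1% at 1154 and 2942 bases, neither called. The spliced form of the pair of 1154 bases has the same values as the retaining form at 1716 bases, so these pairs are not independent. Fgfr4, the hepatocyte receptor of FGF19-type hormones, had 5.16, 2.37 and 2.76 FPKM retaining and 4.74, 8.32 and 7.13 FPKM spliced. Its replicate 1 differed in direction from the other libraries. Bap1, a tumour suppressor deubiquitinase, had 1 retaining exon, at 3.77, 1.40 and 1.24 FPKM, set against 2 spliced forms: 1.65, 5.09 and 3.43 FPKM across 497 bases, and 0.0658, 0.136 and 0.126 FPKM across 834 bases. Hras and Tsc2 had the spliced form higher in all of their 4 pairs (limma), where 51.8% of all long members were called so. The 3 Tsc2 pairs share a single retaining value, 0.425 FPKM in replicate 1, with none listed in the other libraries.

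The clock list held 7 members in 5 genes. Of its 14 genes at 1 FPKM, 4 held a member (28.6%), against 12.1% over all genes. Nr1d2, the repressor REV-ERB beta, had 6.10, 5.71 and 5.65 FPKM retaining and 9.26, 12.8 and 14.1 FPKM spliced across 2909 bases, a share of 33.1% ± 5.87 (SD, n = 3) with the spliced form higher in each library. Per2, a core negative regulator, had 1.32, 1.12 and 2.17 FPKM retaining and 4.63, 1.40 and 0.405 FPKM spliced; replicate 3 alone had more of the retaining form. The members of Per1 and Per3 lacked a listed retaining form in at least 1 library. The time of day of collection is not given in the labels.

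Of 16 genes known for nuclear or detained RNA, 5 held 8 members. At 1 FPKM, 4 of 11 of them held a member (36.4%), against 12.1% of all genes of that level. Ogt, the O-GlcNAc transferase whose detained intron is well known, had 13.8, 11.8 and 10.1 FPKM retaining and 0.00286, 1.00 and 5.68 FPKM spliced across 3415 bases. The retaining form was higher in each library and the share was 85.4% ± 18.9 (SD, n = 3), without passing (limma, adjusted p = 0.0777). No annotated exon spans the Ogt intron, and an annotated start and end lie inside it, whose part was not tested. Gas5, a noncoding host of small nucleolar RNAs, had 3 members. The intron of 447 bases that holds Snord80 had 5.11, 4.57 and 2.06 FPKM retaining and 1.25, 1.18 and 0.248 FPKM spliced, while the intron of 435 bases that holds Snord78 had 0.885, 1.53 and 0.000677 FPKM retaining and 9.55, 8.21 and 5.24 FPKM spliced. In all, 17 members hosted an annotated small RNA gene; the retaining form was higher in 2 of them, in Gas5 and Snhg17, and the spliced form in 11 (limma), where 2.99% and 51.8% of all long members were called. Markers of cell types other than hepatocytes held 4 members, in Clec4f, Dcn, Stab2 and Trbc2, none with both forms in all 3 libraries. These were 4 of 28 genes of that list at 1 FPKM (14.3%).

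A reading frame could be followed into 624 of the introns, and 621 of them (99.5%) held an in-frame stop codon. The first began at a median of base 40 of the intron and within 100 bases in 494 introns (79.2%). By pairs, 639 of 642 long members had a stop, against 639 of 823 short ones (77.6%); a longer stretch has more codons to hold one. The 3 exceptions were in Prg4, Elk3 and Pcnx3. Prg4, the joint lubricant proteoglycan lubricin, had 5.84, 2.13 and 13.0 FPKM of the form that keeps its open stretch of 2130 bases and 3.36, 1.07 and 3.11 FPKM without it, a share of 70.3% ± 9.21 (SD, n = 3). Elk3, a transcription factor, had an open intron of 326 bases and Pcnx3, a membrane protein, one of 452 bases.

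**Figure D5:**
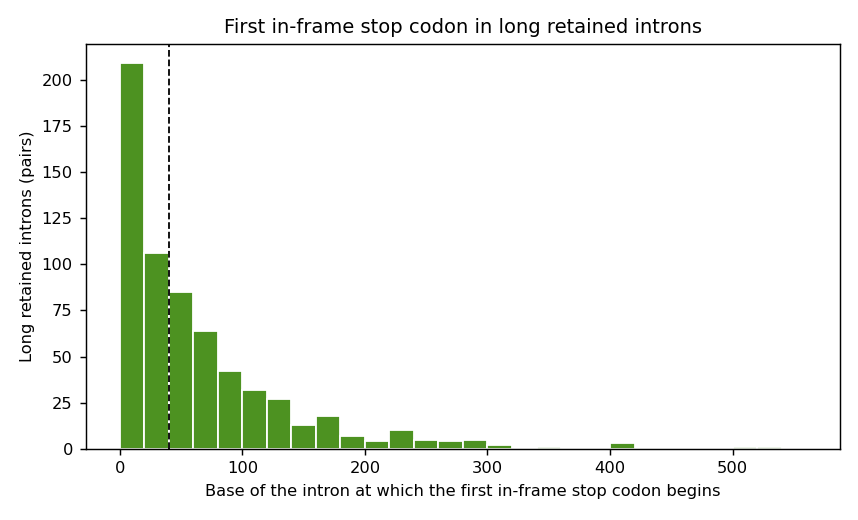
Base of the intron at which the first in-frame stop codon begins (horizontal axis, bins of 20 bases) and the number of long member pairs in each bin (vertical axis); the dashed line is the median, base 40. Most introns meet a stop within the first 100 bases and the latest begins at base 538.

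Sequence could be read for 708 of the 1561 introns (45.4%), those inside an annotated transcript's exon. Their median GC content was 47.6%, against 47.7% in 871 other introns of the same genes read in the same way and 55.4% in 883 short retained ones. The 871 are thus also introns that an annotated transcript keeps, and listed retained introns outside the rule were not removed from them. The comparison therefore cannot show whether retained introns differ from introns that no annotated transcript keeps. A log2-odds score of the donor, over 3 exon and 6 intron bases, had a median of 7.33 in long members, against 7.51 in the other introns. For the acceptor, over 20 intron and 3 exon bases, it was 8.74, against 8.36. These differences are small beside the spread between introns, whose quartiles for the long members were 5.36 and 8.85 for the donor and 6.26 and 10.6 for the acceptor. GT and AG bounded 688 of the 708 (97.2%), and GC and AG bounded 19 (2.68%), against 14 of the 871 (1.61%).

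Shares differed with annotated position, taken from a single annotated transcript that has the intron. For the Srrt intron, placed in a 3′ untranslated region, that transcript was one marked for nonsense-mediated decay. The 79 pairs whose intron is not annotated as one had medians of 70.6%, 77.1% and 65.6% in replicates 1 to 3, and the 33 in annotated 3′ untranslated regions 83.8%, 86.9% and 62.3%, against 10.3%, 5.32% and 5.41% for the 1436 in coding sequence. The 12 in 5′ untranslated regions had medians of 48.0%, 0.334% and 0.0788%, below the coding ones in replicates 2 and 3. The unannotated and 3′ groups were seldom complete: both forms were listed in all 3 libraries for 8 of the 79 and 7 of the 33.

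Members just inside the length limit included Psme2 and E2f4, with introns of 299 bases and mean shares of 3.77% and 3.49%; Tmem50a and Adcy6, with 298 bases, fell just outside, with 28.3% and 11.9%. At the level limit, Clca3a1 and Pdlim7 entered with a mean of 1.00 FPKM for both forms together, and Phtf1 and Aox1 stayed out with 0.994 FPKM each. The libraries' strandedness is not given in the labels, so reads from a gene on the opposite strand may add to an intron's values, and their part was not tested.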

How the data were processed

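RNA was sequenced in 3 libraries of WT mouse liver. The deposited tables give 1 FPKM value, made by the authors, for each transcript-structure event; which program made them is not stated in the sources used. Per the submitters' processing notes, tools included HISAT2 2.0.1 and HTSeq 0.6.1 after cutadapt 1.9.1, and the build was mm9. The coordinates, however, matched introns of GENCODE M21 on GRCm38 for 95.3% of 2615 listed introns, and for 0 after a shift of 1000 bases, so GRCm38 is used. Depth is unknown, so no counting interval could be given, and FPKM of low forms is imprecise to an unknown degree.

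Identical rows were dropped and retaining and spliced forms paired by locus, strand, intron and outer exon ends. Forms not listed count as 0; a pair with neither form in a library has no share there. Log2 ratios with 0.1 FPKM added were fitted with limma 3.58.1 (R 4.3.3; intercept only, trended and robust prior) over all 2678 pairs, with Benjamini-Hochberg adjustment; the script was tested on simulated data. Adding 0.1 FPKM understates the ratio of low forms. Tables were joined with pandas 2.3.3. No genome sequence was used: intron sequence came from GENCODE transcripts whose exon spans the intron, and splice site matrices from 14551 such introns. GENCODE gave names, positions and reading frames.

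Members were named by a rule: among those with both forms in all 3 libraries, the 6 with most RNA, then, at 5 FPKM or more, the 6 highest and 6 lowest shares, 5 largest SDs and 4 longest, and up to 5 per gene list; others named were chosen after their values were seen, and some members that the rule names are not reported here. The members and gene lists were chosen with earlier results of these data known. Alternatives changed the FPKM minimum, the added constant, the length limit, the listing condition, the limma prior and the number of pairs per intron, and left out each library.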

Additional observations from a re-analysis of the deposited data

How the results depend on the processing

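The long introns kept the higher median share in every alternative run, by 3.51 to 13.5 percentage points, and by 6.09 to 6.69 when each replicate in turn was left out. No alternative held annotation fixed, and 45.3% of long but 83.7% of short pairs lay inside an annotated exon. Long pairs inside one had medians of 10.5%, 6.15% and 6.56% in replicates 1 to 3, against 13.2%, 9.19% and 9.41% outside. The part of annotation in the difference was not tested. The share of introns with a stop stayed within its interval in all alternatives run. The differences from other introns of the same genes moved by less than the SD between introns, which is far wider than the differences themselves. The GC difference was -0.055 percentage points in the main run and -0.778 with both forms required in all 3 libraries. The donor score difference ran from -0.352 to -0.124. The acceptor score difference was 0.384, rose to 0.906 at 5 FPKM and turned to -0.00854 with both forms in all 3 libraries. With a minimum of 5 FPKM the members numbered 831, with 22 retaining and 544 spliced calls. With both forms required in all 3 libraries they numbered 473, with a median share of 19.3% and 31 and 261 calls. Adding 0.01 FPKM in place of 0.1 gave 11 and 168 calls, and adding 1 FPKM gave 68 and 1005. Leaving out each replicate in turn gave 1295 to 1403 members, median shares of 12.2% to 13.3%, 0 to 4 retaining calls and 0 to 108 spliced calls; fewer libraries enter the test and the listing condition. Among the 46 named members, directions turned for 4 with 1 replicate left out, their log2 ratio then running from -1.86 to 0.81 in Ccnl2 (705 bases; -0.23 with all 3 libraries), -0.31 to 0.30 in Itih2 (0.06), -1.01 to 0.94 in Per2 (0.05) and -0.31 to 1.95 in Ppp1r12a (0.61). Per2 also turned, to -0.093, with 1 FPKM added. None of the 4 was called; the cause was not tested. Calls were lost for 16 of the 46 with 0.01 FPKM added and for 18, 16 and 29 without replicates 1, 2 and 3. No paired analysis was possible because the samples form a single group, with no second group to pair by replicate number; forms and length classes were compared within each library. With 3 libraries of unknown depth, and pairs that share exons, single members with low retaining values are not resolved.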
